A study of Mus musculus with 2 samples.

Results

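The chemokines and their receptors were examined in RNA sequencing of mouse bone marrow colonies that carried an EVI1 retrovirus. EVI1 is a DNA-binding regulator of blood stem cells and a leukemia oncogene, encoded at the Mecom locus. The genes were taken by name: every gene whose symbol is Ccl, Cxcl, Ccr or Cxcr followed by a number, plus Xcl1, Xcr1, Cx3cl1, Cx3cr1 and Ackr1 to Ackr4. This gave 68 of the 55487 gene IDs in the deposited table, which carry 63 symbols, with 45 IDs for ligands and 23 for receptors. Of these, 22 reached 1 CPM (counts scaled to a common library size, as given below) in at least 1 library (15 ligands and 7 receptors), and only those were compared between libraries (called tested below). Of the other 46, 23 had counts below that level and 23 had none in either library. A gene that passed through 1 library alone had to be higher there, so the 22 do not stand for all 68. The same filter, with the same limit, was used for every other gene and list counted below.

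The study had 1 library for each vector. Lineage-negative marrow cells of C57BL/6 mice, from femora, tibiae and pelvis, received the retroviral vector pMYs-IG with HA-tagged wild-type EVI1 (the EVI1-WT library) or HA-tagged EVI1+18 (the EVI1+18 library), in a series titled for aberrant EVI1 splicing. Cells positive for the vector's green fluorescent protein were sorted 3 days later, and 10000 of them grew in Methocult M3434, a semi-solid colony medium, for about 3 weeks. Both forms were overexpressed from a retrovirus, and no library of cells without an EVI1 vector was analysed here. The libraries held 20480447 and 20981903 counts. CPM were scaled by TMM, which corrects library size for differences in RNA composition, and a count of 0 allows up to 3 counts, or 0.150 and 0.140 scaled CPM in EVI1-WT and EVI1+18. With 1 library for each form there was no replicate check and no test across samples. Each ratio has a 95% exact counting interval, which covers counting error only and so compares 1 culture with another. The call rule was an interval that lay entirely above 2 (higher in EVI1+18) or entirely below 0.5 (lower).

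Mecom had 3612 and 4481 counts (here and below, EVI1-WT first), a ratio of 1.16 (1.11 to 1.21), and how many of these came from the vectors was not tested. Eif2s3y, on the Y chromosome, had 2002 and 1 counts, whereas the Y-linked Ddx3y had 1545 and 1626. The labels do not say whether the cultures came from the same mice, so a difference between animals and one between vectors cannot be told apart. Markers of blood cell types differed as well. Those of neutrophils summed to 3541 scaled CPM in the EVI1-WT library and 1666 in the other (5 of 10 tested genes lower, 0 higher). Those of mast cells and basophils were 5616 and 834 (7 of 10 lower, 1 higher), with Tpsab1 at 0 in both. Those of eosinophils were 865 and 175 (5 of 6 lower, 1 higher). Monocyte and macrophage markers summed to 1274 and 1826 (4 of 8 higher, 2 lower, C1qa at 0), but Gpnmb alone made 242 and 1214, and without it the sum was 1032 and 612. No other of these lists but that of B cells changed direction without the gene that moved most, a check chosen after the values were seen. The dendritic cell markers summed to 123 and 223 (3 of 5 higher, 0 lower, Cd209a at 0), megakaryocyte markers to 737 and 1941 (7 of 9 higher, 0 lower) and erythroid markers to 1412 and 12894 (10 of 11 higher, 0 lower). Lymphoid markers were low, at 9.89 and 3.17 for T and NK cells (2 of 3 tested lower, 0 higher, Cd2, Trbc1 and Ncr1 at 0 in both) and 6.49 and 28.7 for B cells (1 of 2 tested higher, 0 lower, with Ms4a1, Pax5 and Ebf1 among those at 0 in both). Ighm made 3.05 and 26.0 of the B cell sum, which without it was 3.45 and 2.66. Stromal and endothelial markers summed to 432 and 269, of which Pecam1, also carried by blood cells, made 427 and 268, and Col1a2 and Pdgfra stood at 0. In bulk libraries such as these, fewer cells of a type and less RNA per cell cannot be told apart.

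Chemokines are small secreted proteins that guide moving cells. They are named after the spacing of their first cysteines (CC, CXC, C and CX3C) and act on membrane receptors that signal through Gi-type G proteins. Atypical receptors bind chemokines without that signal and take them out of circulation or carry them. In bone marrow, CXCL12 and its receptor CXCR4 hold stem and progenitor cells and neutrophils in place, while CXCR2 and its ligands draw neutrophils into the blood. Activated macrophages, mast cells and basophils secrete inflammatory CC ligands such as CCL3 and CCL4.

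Many chemokine genes lie side by side, and all 4 ligand genes called lower in EVI1+18 are neighbours on chromosome 11. The stretches before the start sites of Ccl3, Ccl6 and Ccl9, 3 of these 4, are shown here beside that of Cxcl2, a CXC ligand that was not called. The sequences are from RefSeq (GRCm38.p6) and give the 250 bases before each start on the gene's own strand, at chr11:83649379-83649628 (minus strand), chr11:83593088-83593337 (minus), chr11:83578637-83578886 (minus) and chr5:90903649-90903898 (plus). RefSeq promoters matched 17 of the 22 tested members, and among those not in the table were Ccl2, Ccl4, Ccl7 and Ccl24. Capitals mark every match on either strand to 7 motifs, which may overlap. These were the kappaB consensus, the AP-1 motif written as TGANTCA, the RUNX motif read as TGTGGT, the GATA motif searched as AGATAA, the ETS motif given by AGGAAGT, the C/EBP motif taken as TTGCNNAA, and the TATA box in its core form TATAAA.
Ccl3: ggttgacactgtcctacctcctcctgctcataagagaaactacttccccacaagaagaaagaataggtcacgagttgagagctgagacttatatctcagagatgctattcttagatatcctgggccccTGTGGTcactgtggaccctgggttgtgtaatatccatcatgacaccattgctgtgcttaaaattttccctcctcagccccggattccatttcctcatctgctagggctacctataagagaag
Ccl6: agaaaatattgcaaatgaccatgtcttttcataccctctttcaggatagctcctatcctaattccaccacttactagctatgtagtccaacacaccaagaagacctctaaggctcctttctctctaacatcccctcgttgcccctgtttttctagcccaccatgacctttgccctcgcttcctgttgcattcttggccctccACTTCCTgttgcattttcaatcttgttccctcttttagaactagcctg
Ccl9: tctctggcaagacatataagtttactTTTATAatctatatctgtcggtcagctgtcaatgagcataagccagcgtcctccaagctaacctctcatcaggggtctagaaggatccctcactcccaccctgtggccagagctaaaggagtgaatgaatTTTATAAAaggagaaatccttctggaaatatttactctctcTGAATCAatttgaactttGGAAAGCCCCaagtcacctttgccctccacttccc
Cxcl2: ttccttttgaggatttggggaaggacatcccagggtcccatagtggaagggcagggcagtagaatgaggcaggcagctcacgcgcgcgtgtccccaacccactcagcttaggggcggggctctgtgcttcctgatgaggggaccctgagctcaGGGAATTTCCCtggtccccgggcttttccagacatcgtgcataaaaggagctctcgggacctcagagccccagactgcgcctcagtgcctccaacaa

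The Ccl3 stretch held 1 match, to the RUNX motif, which begins 122 bases before the start. Ccl6 held 1, to the ETS motif on the opposite strand, 48 bases before the start. Ccl9 held the TATA motif, an AP-1 match 53 bases and a kappaB match 35 bases before the start. Cxcl2 held a kappaB match on both strands, overlapping itself, from 97 bases before the start. Among all 32851 RefSeq promoter stretches of this length, 3.90% held the kappaB motif, 6.75% AP-1, 14.0% RUNX, 9.99% GATA, 7.69% ETS, 9.56% C/EBP and 12.4% TATA. The 20 stretches found for tested members included alternative starts of Ccl25 and of Ccl27a. Of the 20, 4 held kappaB, 3 AP-1, 3 RUNX, 4 GATA, 1 ETS, 2 C/EBP and 5 TATA. The 2 with C/EBP are overlapping stretches of Ccl27a that hold the same site. No motif was shared by all of Ccl3, Ccl6 and Ccl9. These matches describe letters and do not show binding.

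Of the 22 tested genes, 6 were called lower in EVI1+18 (Ccl3, Ccl4, Ccl6, Ccl9, Ccr1 and Cxcr2) and 2 higher (Ccl7 and Ackr1). The 6 are 27.3% of those tested, beside 5.1% of all 13183 tested genes called lower. The 2 are 9.09%, beside 5.05% of all tested genes called higher. Of the 2, Ackr1 reached 1 scaled CPM in EVI1+18 alone, so it had to be higher there. With a filter at 5 scaled CPM, 1 member was called higher. The median log2 ratio was -0.10 for the 22 genes, 0.005 for the 15 ligands and -0.54 for the 7 receptors, beside 0.01 for all tested genes. The ligand median took the opposite sign (-0.25) over the 9 ligands of at least 5 scaled CPM, so it gives no direction. The 6 lower genes stood at 75.7 scaled CPM or more in EVI1-WT, and the 2 higher ones at 8.54 and 0.599.

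**Figure D1:**
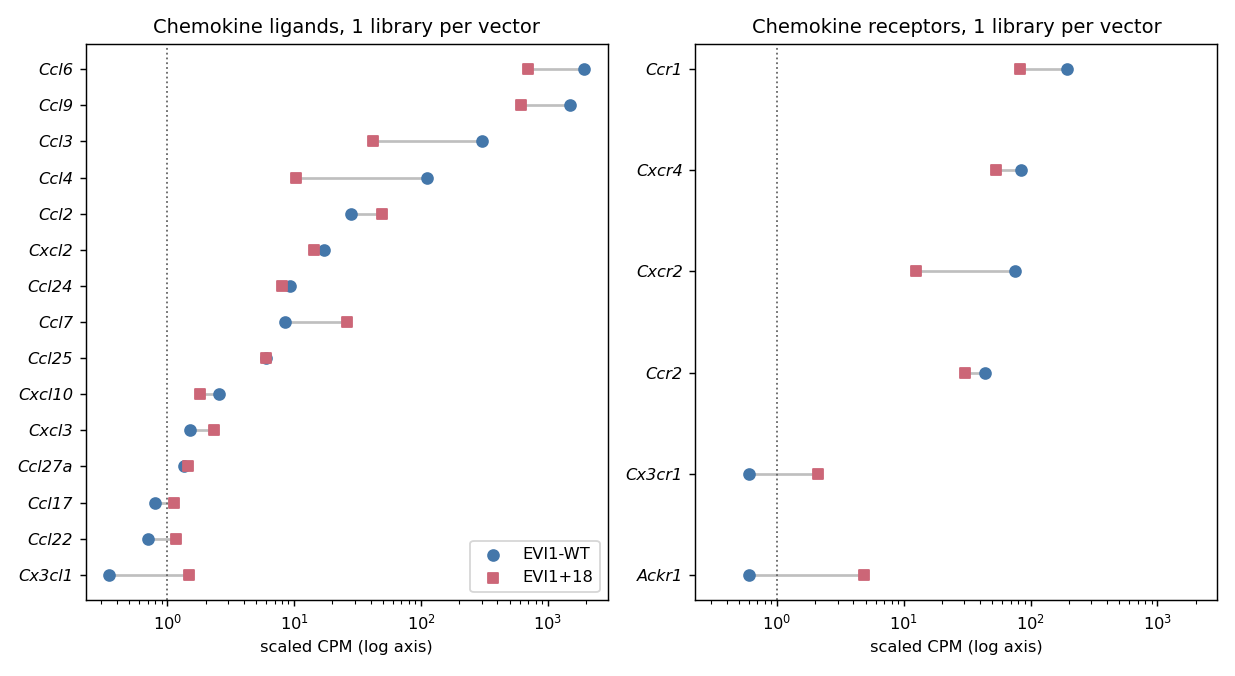
Level of the tested chemokine (left) and receptor (right) genes named in the text, in scaled CPM on a log axis, with a circle for the EVI1-WT library and a square for the EVI1+18 library. Each symbol is 1 library, and the dotted line is the filter at 1 scaled CPM. Ccl6 and Ccl9 stand highest in both libraries, and Ccl3 and Ccl4 are joined by the longest lines among the abundant ligands.

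All the ligand counts together made up 0.385% of the EVI1-WT library and 0.151% of the EVI1+18 library, which is 3932 and 1481 scaled CPM. Ccl6 and Ccl9, CC chemokines of mouse myeloid cells that act on CCR1, supplied 87.5% of those counts in EVI1-WT and 88.6% in EVI1+18. Per kilobase of exon, Ccl6 stood at 1077 scaled CPM in the EVI1-WT library, in place 42 among the 13183 tested genes, and at 389 in the EVI1+18 library, in place 144. Ccl9 followed at 495 and 202, Ccl3 at 398 and 54.6. In EVI1-WT the order then ran Ccl4 (169), Ccl2 (24.5), Ccl7 (10.7), Cxcl2 (8.28) and Ccl24 (7.17). The counting intervals of Ccl7 and Cxcl2 overlapped, as did those of Cxcl2 and Ccl24. In EVI1+18 Ccl2 (43.5) and Ccl7 (32.7) stood above Ccl4 (15.6), with intervals that did not overlap. The other 7 tested ligands lay between 0.0889 (Cx3cl1) and 1.55 (Ccl17) in EVI1-WT and between 0.379 and 2.18, for the same genes, in EVI1+18.

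The inflammatory CC ligands of the MIP-1 kind, which recruit monocytes, granulocytes and T cells, were lower in EVI1+18. Of 5 in this group 4 were tested, and all 4 were called lower. Ccl4 (ENSMUSG00000018930; GRCm38 chromosome 11, 83662584 to 83664683), which encodes MIP-1 beta, had 2235 counts with wild-type EVI1 and 221 with EVI1+18. Its level was 112 scaled CPM against 10.3, a 10.8-fold difference with an interval of 9.43 to 12.5. Ccl3 (ENSMUSG00000000982; chromosome 11, 83647844 to 83649355), which encodes MIP-1 alpha and is known to restrain stem cell division, had 6104 and 898 counts. At 305 and 41.9 scaled CPM it was 7.28-fold lower (6.79 to 7.82).

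The other pair of this group differed less. Ccl6 (ENSMUSG00000018927; chromosome 11, 83587882 to 83593087) had 38708 and 14978 counts, or 1933 and 698 scaled CPM, and was 2.77-fold lower (2.72 to 2.82). Ccl9 (ENSMUSG00000019122; chromosome 11, 83572919 to 83578636) had 30162 and 13176 counts, or 1506 and 614 scaled CPM, and was 2.45-fold lower (2.40 to 2.50). The intervals of Ccl3 and Ccl4 did not overlap those of Ccl6 and Ccl9. Ccl5, which T cells and platelets also make, had 4 and 9 counts and was not tested. Of the mast cell and basophil markers given above, 7 of 10 tested were lower in the same library. Kit was higher, with 63 and 254 counts (3.76-fold, 2.85 to 5.04). The part of these markers in the ligand ratios was not tested.

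The CCR2 ligands, which draw monocytes out of the marrow, stood on the other side of 1. Ccl7 (ENSMUSG00000035373; chromosome 11, 82045712 to 82047525) had 171 and 562 counts, or 8.54 and 26.2 scaled CPM. It was called higher, at 3.07-fold (2.58 to 3.66). Its neighbour Ccl2 (ENSMUSG00000035385; chromosome 11, 82035571 to 82037453), the best known monocyte attractant, had 558 and 1063 counts, or 27.9 and 49.5 scaled CPM. Its ratio of 1.78 (1.60 to 1.97) lay wholly above 1 but under 2, so it was not called. Ccl12, the third gene of the group, had 3 and 15 counts and was not tested. Of 8 tested monocyte and macrophage markers, 4 were higher (Mrc1, Mertk, Fcgr1 and Gpnmb) and 2 lower (Ly6c2 and Adgre1), and their sum without Gpnmb was lower in EVI1+18, as given above. Their part in these ratios was not tested.

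Of the neutrophil-attracting CXCR2 ligands, 2 of 5 were tested and 0 were called. Cxcl2 had 343 and 309 counts, or 17.1 and 14.4 scaled CPM, a ratio of 0.841 (0.719 to 0.983). Cxcl3 had 30 and 50 counts, with an interval of 0.970 to 2.53 that included 1. Of the 50-base words of Cxcl3, 3.51% occur in Cxcl2, and 5.84% of those of Cxcl2 occur in Cxcl3. Cxcl5 had 3 and 9 counts, and Cxcl1 and Cxcl15 had 0 in both libraries. The chemokines Pf4 (CXCL4) and Ppbp (CXCL7), stored in platelet granules, fall outside the naming rule. They had 99 and 7446 counts (70.2-fold higher, 57.6 to 86.5) and 206 and 3557 counts (16.1-fold higher, 14.0 to 18.6). Beside them, the megakaryocyte markers, a list that includes both, had 7 of 9 tested genes called higher.

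The remaining tested ligands were not called. Ccl24, an eosinophil attractant, had 186 and 172 counts (ratio 0.863, 0.697 to 1.07). Eosinophil markers had 5 of 6 tested genes lower and 1 higher, and any link to Ccl24 was not tested. Cxcl10, an interferon-induced ligand of CXCR3, had 51 and 39 counts (0.714, 0.458 to 1.10). The CCR4 ligands Ccl17 and Ccl22, products of dendritic cells and macrophages, had 16 and 24 counts and 14 and 25 counts, with intervals of 0.714 to 2.82 and 0.834 to 3.47. Ccl25, a thymic and gut chemokine, had 120 and 129 counts (1.003, 0.776 to 1.30), and 2.74% of its exon bases overlap Elavl1 on the opposite strand. Ccl27a, a skin chemokine, had 27 and 31 counts (1.07, 0.619 to 1.87) and is uncertain, since 45.0% of its 50-base words occur in other genes. Cx3cl1, the membrane-bound ligand of CX3CR1, had 7 and 32 counts. Its ratio was 4.27, but the interval of 1.85 to 11.5 reached below 2. Of these 7 genes, only Cx3cl1 had an interval clear of 1.

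Among the 7 tested receptors, the neutrophil receptor Cxcr2 had the lowest ratio. Cxcr2 (ENSMUSG00000026180; chromosome 1, 74153989 to 74161246) had 1516 and 268 counts, or 75.7 and 12.5 scaled CPM, and was 6.06-fold lower (5.32 to 6.93). Its close relative Cxcr1, 37.8 kb away start to start, had 1 and 7 counts and was not tested. Beside it, 5 of 10 tested neutrophil markers were lower (Ly6g, Ngp, Ltf, S100a8 and S100a9), and Camp, Mmp8, Lcn2, Elane and Mpo were not called. Their part in the Cxcr2 ratio was not tested.

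Ccr1 (ENSMUSG00000025804; chromosome 9, 123962124 to 123968692), a receptor for CCL3, CCL6 and CCL9, had 3851 and 1760 counts. It stood at 192 and 82.0 scaled CPM and was called lower, at 2.34-fold (2.22 to 2.48). Per kilobase of exon it was the highest chemokine receptor in EVI1-WT (67.9 scaled CPM). In EVI1+18, at 29.0, its interval overlapped that of Cxcr4 at 29.4.

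Cxcr4 and Ccr2 differed by less than the rule. Cxcr4, the retention receptor of marrow, had 1674 and 1140 counts, or 83.6 and 53.1 scaled CPM, and was 1.57-fold lower (1.46 to 1.70). Its ligand Cxcl12, made by marrow stroma, had 1 and 2 counts in these colony cultures. Ccr2, the receptor through which monocytes leave the marrow, had 881 and 650 counts and was 1.45-fold lower (1.31 to 1.61). Of the 50-base words of Ccr2, 1.91% occur in other genes.

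Ackr1 (ENSMUSG00000037872; chromosome 1, 173331886 to 173333750) had the largest upward ratio of the 22 genes. It encodes the atypical receptor also known as the Duffy antigen, which red cells carry and use to bind chemokines. It had 12 and 104 counts, or 0.599 and 4.85 scaled CPM, an 8.09-fold difference with an interval of 4.44 to 16.2. Of its exon bases 25.7% overlap Cadm3 on the same strand, and Cadm3 had 14 and 25 counts. The erythroid markers were higher in the same library (10 of 11 tested), and their part in the Ackr1 ratio was not tested. Cx3cr1, a receptor of patrolling monocytes and macrophages, had 12 and 45 counts. Its ratio of 3.50 had an interval of 1.82 to 7.27 and was not called. Ccl2, Cx3cl1 and Cx3cr1 were among the uncalled genes with intervals wholly above 1, and Cxcl2, Ccr2 and Cxcr4 the 3 with intervals wholly below it.

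**Figure D2:**
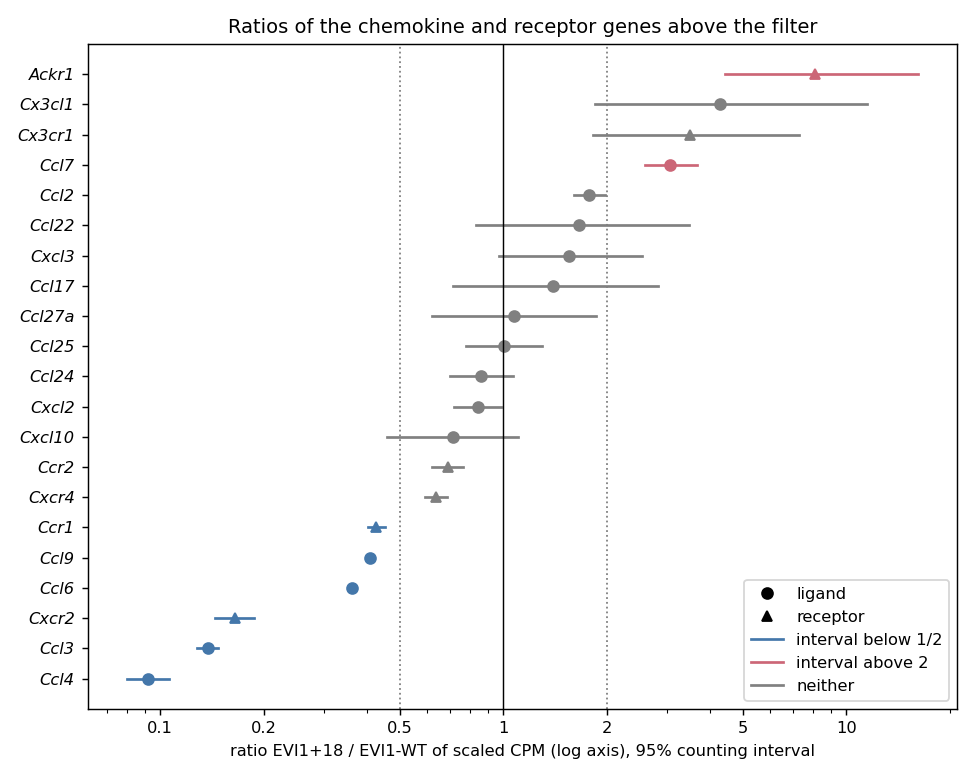
Ratio of scaled CPM in EVI1+18 over EVI1-WT for the tested genes named in the text, on a log axis, with circles for ligands, triangles for receptors and bars for the 95% counting interval. The solid line is equality and the dotted lines are the thresholds of 0.5 and 2. The 6 blue bars lie below 0.5 and the 2 red bars above 2, while Cx3cl1 and Cx3cr1 have ratios above 2 with bars that cross it.

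The receptors under 1 scaled CPM in both libraries included 9 with at least 5 counts in all. The eosinophil and mast cell receptor Ccr3 had 18 and 17 counts, and the type 2 T cell receptor Ccr4 had 19 and 3. The gut-homing receptor Ccr9 had 0 and 16 counts. With the 0 set to a floor of 3 counts the ratio was 4.98, and the counting interval starts at 3.60. Ccr9 is uncertain, since 22 of its 10260 exon bases overlap the far more abundant Slc6a20a on the opposite strand. Ackr4 had 8 and 2 counts, Xcr1, a marker of cross-presenting dendritic cells, 7 and 1, Ccr7 2 and 4, and Ccr1l1 and Ccr10 5 and 1 each. With Cxcr1 these make the 9. Untested ligands with at least 5 counts were Ccl12, Ccl5 and Cxcl5, given above, the membrane-bound Cxcl16 with 5 and 12, and a Ccl27 copy on an unplaced scaffold with 3 and 6. A further 9 IDs had 1 to 4 counts in all. Those at 0 in both libraries were Ccr8 and Cxcr3 among the receptors and 21 ligand IDs, among them Ccl8, Ccl11, Ccl20, Ccl28, Cxcl9, Cxcl13, Cxcl14 and all copies of Ccl19 and Ccl21.

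By position, the genes fell into groups that did not share 1 direction. On chromosome 11, Ccl5, Ccl9, Ccl6, Ccl3 and Ccl4 lie within 139 kb, and their 4 tested members were all called lower. The distance from Ccl9 to Ccl4 held a tested gene that went the other way. This was E230016K23Rik, a noncoding transcript that spans Ccl6 on the opposite strand, with 5 and 38 counts, 7.09-fold higher (2.79 to 23.1). Just beyond Ccl4, Wfdc17, a small secreted protein of macrophages picked after its value was seen, had 17 and 289 counts and was 15.9-fold higher (9.74 to 27.6). These were the 2 called among 6 other tested genes within 100 kb, beside 5.05% of all tested genes called higher. Both reached 1 scaled CPM in EVI1+18 alone, so they had to be higher there. The other 4 were not called, with ratios of 0.438 for Wfdc21 (0.370 to 0.517), 0.455 for 1700020L24Rik (0.326 to 0.628), 0.724 for Heatr6 and 1.76 for Taf15. On the same chromosome, Ccl2 and Ccl7 lie 10.1 kb apart start to start in the other CC group, of 6 genes in 270 kb, and both had ratios above 1. No gene other than members was tested within 100 kb of that group.

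On chromosome 5, Ppbp and Pf4 lie between Cxcl5 and Cxcl3 in a group of 147 kb. They were called higher, while Cxcl3 and Cxcl2 on the same strand were not. On chromosome 9, 8 receptor genes lie within 469 kb. Of the 3 tested, Ccr1 was called lower and the others, among them Ccr2, were not called. At the other end lies Ccr9, whose first bases overlap the amino acid transporter gene Slc6a20a. That gene, picked with its neighbour after their values were seen, had 20 and 1402 counts and was 65.4-fold higher (42.2 to 107). Its paralog Slc6a20b had 5 and 156 counts (29.1-fold, 12.2 to 90.9), and how far the pair share reads was not tested. Of 9 other tested genes there, 5 were called higher and 0 lower, beside 5.05% and 5.1% of all tested genes. All 5 reached 1 scaled CPM in EVI1+18 alone, so they had to be higher there. The 5 include Gm17120, Gm47173 and Gm47171, which lie within Slc6a20a. How far these share reads with it was not tested, so the 5 may not be separate. Gm10052 and Lztfl1 lie within the span of Ccr9, and Fyco1 spans Cxcr6. Gm10052, Lztfl1 and Fyco1 were not called, with ratios of 1.21, 1.05 and 1.07. On chromosome 8, Ccl22, Cx3cl1 and Ccl17 lie within 66.4 kb, all 3 tested and none called, with ratios of 1.67, 4.27 and 1.40.

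**Figure D3:**
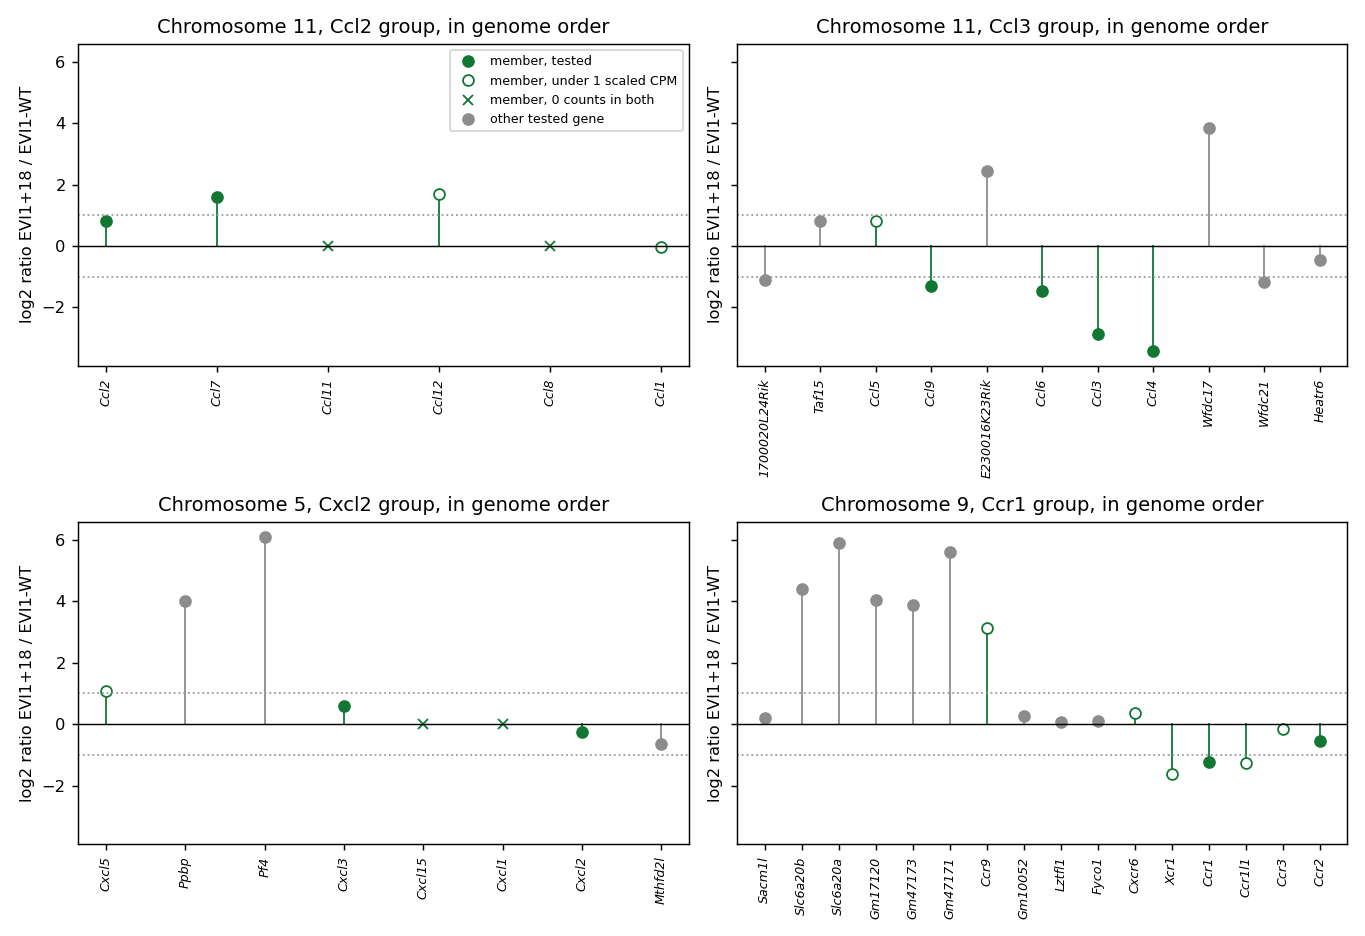
Log2 ratio of EVI1+18 over EVI1-WT (prior count of 2) for the genes of 4 chemokine and receptor groups in genome order, with chemokine and receptor genes in green and other tested genes within 100 kb in grey. Filled circles are tested genes, open circles genes under 1 scaled CPM, crosses genes at 0 counts in both libraries, and dotted lines mark a 2-fold difference. The Ccl3 group has its 4 tested members below the lower line, and Pf4 and Ppbp stand above the Cxcl genes on either side.

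Genes that act with chemokine receptors were counted in groups, to be read beside the 5.1% of all tested genes called lower and the 5.05% called higher. Of 28 genes of the receptor signalling chain (G proteins, phosphoinositide 3-kinase gamma, Rac and its activators), all 28 were tested and 0 were called. Their log2 ratios ran from -1.05 to 0.29, with a median of -0.08. Of 14 genes that switch receptors off, 13 were tested, with 2 lower (15.4%) and 1 higher (7.69%). Rgs1 and Rgs2, which shorten G protein signals, were lower, with 4967 and 1370 counts (3.88-fold, 3.66 to 4.13) and 1698 and 697 counts (2.61-fold, 2.39 to 2.85). Rgs18, a regulator found in platelets and their precursors, was higher, with 1719 and 4162 counts (2.26-fold, 2.14 to 2.39).

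Among 14 tested receptors for other attractants, of 17 in the group, 2 were lower (14.3%) and 1 higher (7.14%, near the share of all genes). The histamine receptor Hrh4, found on mast cells and eosinophils, had 64 and 4 counts, a 17.1-fold difference (6.38 to 64.8). It passed the filter through EVI1-WT alone, so it had to be higher there. The complement receptor C5ar2 had 120 and 30 counts (4.29-fold lower, 2.85 to 6.63). The leukotriene receptor Ltb4r2 had 101 and 578 counts and was 5.34-fold higher (4.32 to 6.67). The median log2 ratio of the group was -0.64.

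Of 17 proteases that can cut chemokines or their receptors, 14 were tested. Of these 5 were lower (35.7%) and 2 higher (14.3%), beside 5.1% and 5.05% of all tested genes. The 2 higher, Dpp4 and Mmp14, reached 1 scaled CPM in EVI1+18 alone, so they had to be higher there. Their share of 14.3% is therefore not a result about the group. Their median log2 ratio was -0.41. The surface protease Adam8 had 13363 and 3695 counts (3.87-fold lower, 3.74 to 4.02), and the aminopeptidase Anpep, also called CD13, 9218 and 3023 (3.27-fold lower, 3.14 to 3.41). The mast cell proteases Tpsb2 and Cma1 were 3.84-fold (2.93 to 5.11) and 2.49-fold lower (2.26 to 2.74), beside mast cell markers of which 7 of 10 were lower, a list that holds both. Dpp4, which clips the ends of many chemokines including CXCL12, had 0 and 29 counts. With the 0 set to a floor of 3 counts the ratio was 9.02, and the counting interval starts at 6.88. The membrane metalloprotease Mmp14 had 2 and 76 counts, a ratio of 35.5 with an interval of 9.49 to 298.

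**Figure D4:**
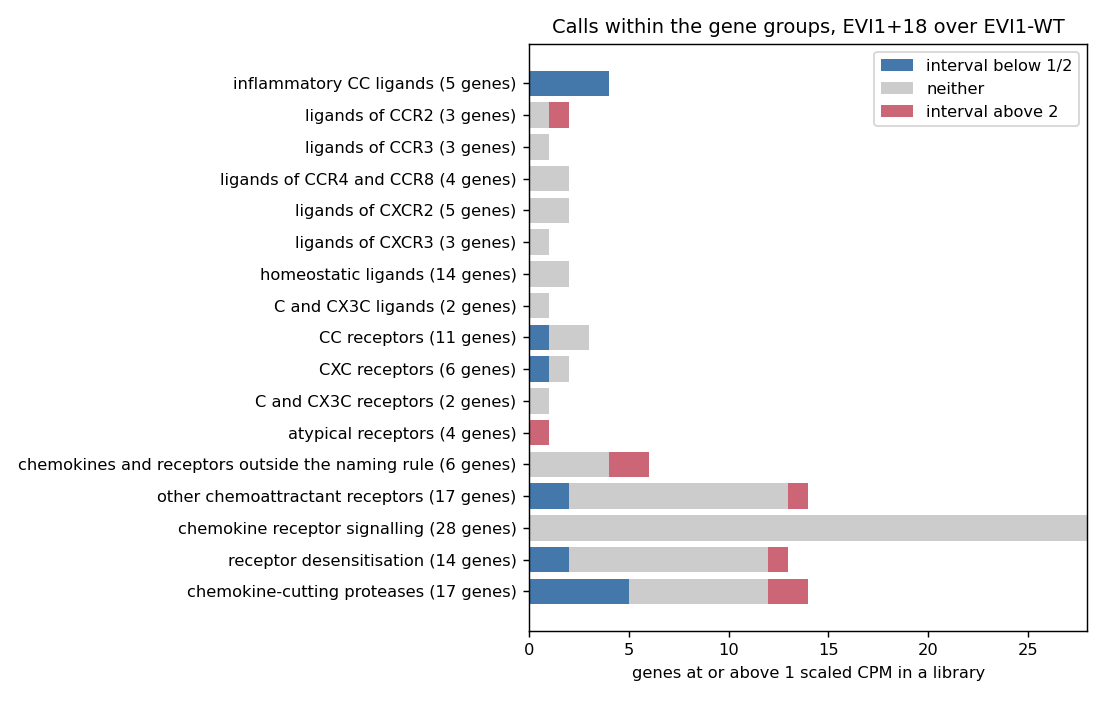
Number of tested genes in each group of ligands, receptors and related genes (horizontal axis) that were called lower (blue), called higher (red) or neither (grey) in EVI1+18, with the size of each group in brackets. The inflammatory CC ligands are the group whose tested genes were all called lower, and the 28 signalling genes are all grey.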

How the data were processed

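RNA was sequenced from 1 colony culture per vector, and each library was assigned to its vector by its labels. The table the authors deposited holds raw read counts for each Ensembl gene as whole numbers. The submitters' processing notes name GRCm38 and the tools edgeR, featureCounts, Subread, SAMtools and HISAT2 (version 2.2.1). Settings, annotation release and strandedness were not given in those sources, so reads of genes that overlap on opposite strands may not be told apart. Symbols and coordinates came from GENCODE M21, which matched 55227 of 55487 IDs. IDs without a match held 0.0126% and 0.0171% of counts. Of 68 member IDs, 7 lie on scaffolds. Another 2 pseudogenes, with hyphenated Ccl19 symbols and 0 counts, were left out.

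Counts were scaled by TMM in edgeR 4.0.16 (R 4.3.3). Without replicates, edgeR's quasi-likelihood test and DESeq2's test were not run. Ratios have 95% Clopper-Pearson intervals (scipy 1.17.1). No molecular identifiers were counted, so reads are not independent molecules and intervals hold counting error only. Log2 ratios used a prior count of 2. The background of 13183 tested genes holds every gene of at least 1 scaled CPM in a library. Shared sequence was the share of a gene's 50-base words found in transcripts of other genes. The interval and the call were also run on counts simulated with counting error alone, which says nothing about differences between cultures. The alternatives were DESeq2 1.42.0 size factors, library totals, other filters, other prior counts and other call rules.

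Some items are not reported here, although the counts over all members include them. The genes named are the other tested members, the untested ones with at least 5 counts, and in each related group up to 4 called genes in each direction, ranked by the interval bound nearest to 1, plus Pf4, Ppbp and some genes in or near position groups. Exceptions are marked in the text as picked after their values were seen. Members and lists were chosen with earlier results of these data known. Position groups join members within 500 kb.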

Additional observations from a re-analysis of the deposited data

How the results depend on the processing

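DESeq2 size factors and library totals multiplied every ratio by 1.02 and 1.05 and left all counts of calls as reported. With a filter at 5 scaled CPM, 1 member was called higher (Ackr1 fell under the filter, leaving 0 receptors), and the medians were -0.59 for members and -0.25 for ligands, the latter of opposite sign. Without a filter, 2 receptors were called higher, and the medians were 0.093 for members, of opposite sign, and 0.41 for ligands. By the point ratio, 4 members (2 ligands and 2 receptors) were called higher. With intervals past 1.5-fold, 5 members (3 ligands and 2 receptors) were higher. With intervals past 4-fold, 1 member and 0 ligands were higher, and 3 members (2 ligands and 1 receptor) were lower. Prior counts of 0.5 and 10 gave member medians of -0.103 and -0.0983. Depth limited the scarce genes: Cx3cl1 and Cx3cr1, at 7 and 12 counts in EVI1-WT, had ratios past 2 with intervals that began under it. With 1 library for each form no library could be left out. No paired analysis was possible because each group has 1 library.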
